A study of Homo sapiens with 2 samples.

Results

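The ZNF-named zinc finger genes are the protein-coding genes whose symbol is ZNF, a number and at most 1 further letter, and whose reads in both libraries together came to at least 100. They were chosen by symbol and by this summed read count, which uses the same counts as the ratios below, so how many are well read is no finding. Of 501 such protein-coding genes among the 57820 gene IDs listed, 98 (19.6%) met that minimum and are called members here. The other 403 had fewer reads, 327 of them 1 to 99 reads and 76 none in either library. RNA of HEK293T, a cell line derived from human embryonic kidney, was sequenced in 1 library from cells given SRα siRNA and 1 library from cells given control siRNA. Both libraries come from the same line with no other labelled treatment, and neither the duration nor the dose of the siRNA is given in the labels. With 1 library per group there is no replicate check and no test, and every interval below covers counting error only. In bulk RNA, fewer cells of a kind and less RNA per cell cannot be told apart.

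Most ZNF proteins carry zinc fingers of the C2H2 class, in which a pair of cysteines and a pair of histidines hold a zinc ion and each finger reads a few bases of DNA. Many also begin with a KRAB domain, which binds the co-repressor TRIM28 and through it brings silencing factors such as the histone methyltransferase SETDB1 to DNA, often to transposable elements. Others have no KRAB domain and act as activators, RNA-binding proteins or enzymes of ubiquitin and SUMO transfer. ZNF proteins are made on free ribosomes and work mostly in the nucleus, so they do not use the route that SRα serves. SRα, encoded by SRPRA, is the receptor subunit that brings ribosomes carrying signal sequences to the endoplasmic reticulum.

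The libraries held 3896721 reads in genes with SRα siRNA and 2445200 with control siRNA. SRPRA itself had 449 reads with SRα siRNA and 507 with control siRNA, or 117 and 205 CPM (reads scaled to a common library size), a log2 ratio of -0.81 (95% counting interval -0.998 to -0.63). Of 6 kidney-progenitor and neuronal genes known from HEK293T that were matched, all were detected in both libraries, with summed levels of 207 and 171 CPM. Of 9 markers of blood, liver, epithelial and connective tissue cells, 6 were at 0 in both libraries and the summed level was 6.50 CPM with SRα siRNA and 4.85 CPM with control siRNA.

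Sequences are shown first for ZNF773, the member with the highest ratio, to let the repeat of the family be seen. Its coding DNA (chromosome 19, GENCODE 29, GRCh38, transcript strand, 5′ to 3′) holds 9 matches to the C2H2 pattern, of which the first 4 are printed, each from its first cysteine codon to the base before the next finger. Each is 84 bases long. Capitals mark the codons of the linker between fingers where it matched threonine, glycine, glutamate, lysine or arginine, and proline, which finger 4 did not.
ZNF773 finger 1: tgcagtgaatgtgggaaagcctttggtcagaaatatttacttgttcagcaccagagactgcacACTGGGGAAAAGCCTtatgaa
ZNF773 finger 2: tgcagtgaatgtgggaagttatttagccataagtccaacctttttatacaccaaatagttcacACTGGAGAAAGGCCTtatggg
ZNF773 finger 3: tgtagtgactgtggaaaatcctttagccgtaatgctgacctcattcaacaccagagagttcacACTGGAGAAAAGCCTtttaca
ZNF773 finger 4: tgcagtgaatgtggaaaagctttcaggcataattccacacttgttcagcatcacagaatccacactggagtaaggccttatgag

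The 8 fingers of this length were 66.7% to 83.3% identical to one another in DNA. Words shared with other genes were counted over all annotated genes and on either strand. A gene that overlaps a member at the same place therefore also counts as another gene. A median of 4.85% of a member's 31-base words occurred in another annotated gene, against 4.36% for other non-secretory genes with at least 100 reads. The range over members was 0% to 41.5%, with ZNF770 at the top, followed by ZNF721 (34.1%), ZNF263 (32.9%), ZNF384 (29.4%) and ZNF428 (26.8%). Genes on the opposite strand overlap 31.9%, 33.1%, 31.9% and 27.6% of the exonic length of ZNF770, ZNF263, ZNF384 and ZNF428. For ZNF721 a gene on the same strand overlaps 25.8%. These shares are therefore no measure of how far the finger repeat recurs between genes. Alignments that were not unique made up 76.5% of entries with SRα siRNA and 79.6% with control siRNA and were listed apart from the gene counts. The levels of members with stretches that recur elsewhere in the genome are therefore uncertain.

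The region around the start of transcription is shown for the members at either end of the ratios, ZNF773 and ZNF609, from RefSeq (GRCh38.p14). Each runs from 250 bases before the start to 50 after it. Capitals mark matches on either strand to the TATA box letters TATAAA, to the CCAAT box, to the SP-factor letters GGGCGG and to the sequence ACTACA.
ZNF773 (chr19:57499688-57499987, plus strand): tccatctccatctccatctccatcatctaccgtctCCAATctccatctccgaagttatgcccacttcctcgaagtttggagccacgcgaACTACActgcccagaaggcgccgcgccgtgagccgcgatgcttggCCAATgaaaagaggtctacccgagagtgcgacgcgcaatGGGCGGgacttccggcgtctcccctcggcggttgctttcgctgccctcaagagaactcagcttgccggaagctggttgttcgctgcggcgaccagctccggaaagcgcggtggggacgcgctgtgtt
ZNF609 (chr15:64460328-64460627, plus strand): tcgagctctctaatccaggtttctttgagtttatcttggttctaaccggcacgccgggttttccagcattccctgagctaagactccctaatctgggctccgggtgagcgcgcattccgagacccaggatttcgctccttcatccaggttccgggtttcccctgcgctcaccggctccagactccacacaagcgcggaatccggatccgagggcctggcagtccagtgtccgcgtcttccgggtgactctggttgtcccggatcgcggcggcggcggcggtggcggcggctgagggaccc

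ZNF773 held 2 matches to CCAAT and 1 each to GGGCGG and ACTACA, none overlapping, and ZNF609 held no match to any of the 4 motifs. Both windows are rich in CG pairs, with 30 in ZNF773 and 28 in ZNF609. Over the 88 members with an entry in the table, the median was 23.5 CG pairs, against 27 for 4115 other non-secretory genes and 14 for all 27305 promoters. ACTACA, a part of the longer site that ZNF143 binds, was present in 19 of the 88 promoters (21.6%), against 9.87% of those of other non-secretory genes and 8.95% of all promoters. Among members it was found in 13 of 36 KRAB promoters (36.1%) and 6 of 52 others (11.5%). CCAAT was present in 19 of 36 KRAB promoters (52.8%), in 13 of 52 other members (25%), in 38.9% of promoters of other non-secretory genes and in 35.7% of all promoters. GGGCGG was present in 65.9% of member promoters, 72.5% of those of other non-secretory genes and 44.6% of all. TATAAA was present in 3 of 88 member promoters (3.41%), 5.35% of those of other non-secretory genes and 3264 of all 27305. A match is a run of letters and not a bound site.

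The family differed little between the libraries. The members together held 17084 reads with SRα siRNA and 10297 with control siRNA, which is 0.438% (95% exact interval 0.432 to 0.445) and 0.421% (0.413 to 0.429) of reads in genes. Their median log2 ratio of CPM, SRα siRNA over control siRNA, was 0.05 (SD over members 0.23), beside 0.02 over all 7195 protein-coding genes with at least 100 reads and 0.04 over the 4849 other non-secretory genes among them. Non-secretory here means that no hydrophobic segment was predicted in the protein. Since 1 member holds many reads, the pooled reads gave a log2 ratio of 0.09 (0.06 to 0.13) for all members and 0.06 (0.02 to 0.09) without ZNF773, against 0.0501 (0.0472 to 0.0531) for other non-secretory genes.

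Ratios were above 0 for 60 of the 98 members and below 0 for 38, or 61.2% above. The background for this count was 54.7% of all protein-coding genes with at least 100 reads and 58.5% of other non-secretory genes. At least 1.5-fold higher with SRα siRNA was 1 member, ZNF773, and 0 members were at least 1.5-fold lower, against 0.639% and 0.473% of all protein-coding genes with at least 100 reads. No member was 2-fold apart in either direction, beside 0.0278% of all protein-coding genes and 0.0412% of other non-secretory genes that were 2-fold higher and 0% of either that were 2-fold lower. The counting interval lay wholly above equal levels for 3 members (ZNF773, ZNF462 and ZNF451) and wholly below for 2 (ZNF384 and ZNF609), against 7.76% and 4.13% of all protein-coding genes and 9.3% and 3.03% of other non-secretory genes. These shares depend on depth. Beside 3.06% of members with intervals wholly above and 2.04% wholly below, other non-secretory genes weighted to the members' depth had 5.32% and 2.96%. A ratio past 1.5-fold was held upwards by 1.02% and downwards by 0% of members, beside 1.26% and 0.844% of other genes by the same weighting. Ratios were above 0 for 61.2% of members and, so weighted, 52.9% of other genes. The intervals of the other 93 members held equal levels, so no difference was detectable for them at this depth. Over all members the intervals reached 0.15 to 0.62 on the log2 scale to either side, with a median of 0.47.

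**Figure D1:**
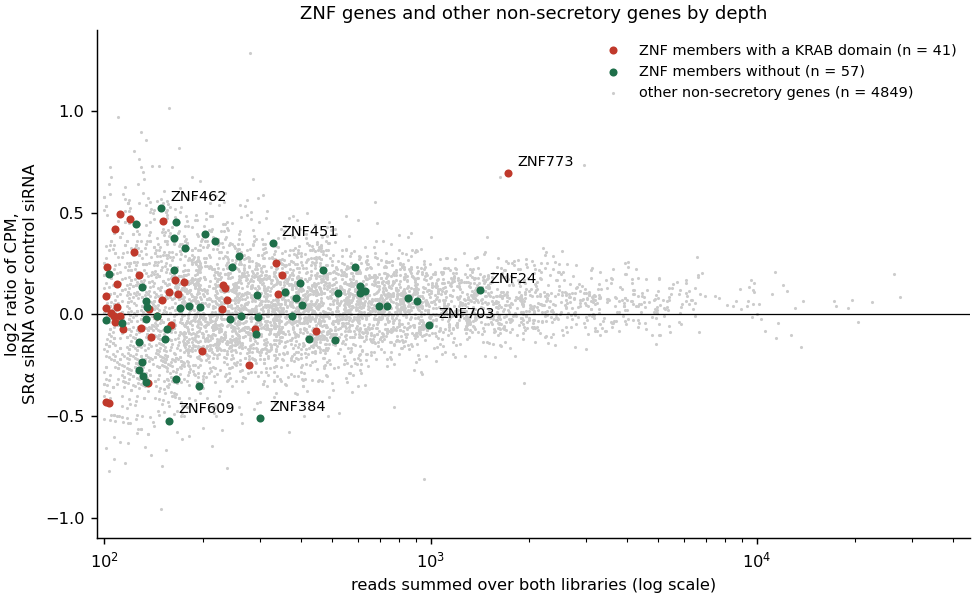
Each point is a gene with at least 100 reads summed over both libraries (x axis, log scale) and its log2 ratio of CPM, SRα siRNA over control siRNA (y axis). The 41 ZNF members with a KRAB domain are red, the 57 without are green and the 4849 other non-secretory genes are grey. Most members lie among the grey points around 0, and ZNF773 stands at 0.70.

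Set against other non-secretory genes of like depth, the members' medians were higher by small amounts in each of 4 depth bands. In the band from 100 up to 200 reads, 57 members had a median log2 ratio of 0.03, against -0.01 for 1232 other genes. From 200 up to 400 reads, the median was 0.10 for 24 members and 0.02 for 1320 other genes. From 400 up to 800 reads it was 0.08 for 12 members and 0.05 for 1096 other genes, and at 800 reads or more 0.08 for 5 members and 0.06 for 1201. Weighted by members, the difference between the medians was 0.05 on the log2 scale. Single genes of the lowest band had SDs of 0.25 in members and 0.27 in other genes. The highest band's median rests on 5 members. The shares above 0 within the bands were 31 of 57, 16 of 24, 9 of 12 and 4 of 5 in members and 48.9%, 54.9%, 61.4% and 69.7% in other genes, from the lowest band to the highest.

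**Figure D2:**
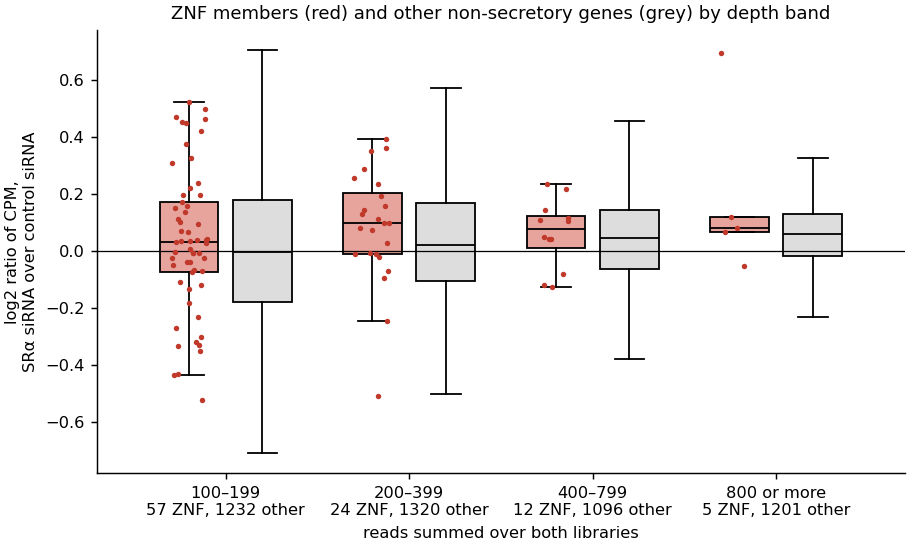
Boxes give the median and quartiles of the log2 ratio, SRα siRNA over control siRNA, in 4 bands of summed reads, for ZNF members (red, left, each member a point) and other non-secretory genes (grey, right, whiskers to 1.5 times the quartile range). The members' boxes overlap those of other genes in each band, and the medians differ by 0.02 to 0.08.

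GC content moved with the ratio. Members had a median GC content of 43.4% in their longest transcript, against 46.4% for other non-secretory genes. Across the 98 members the Spearman correlation of the ratio with GC content was -0.24 (Pearson -0.21), and across 4849 other non-secretory genes it was -0.23 (Pearson -0.22). These are correlations over genes of the same 2 libraries, which are not independent replicates. In 5 GC bins with like numbers of genes, from low to high GC content, the medians of members and of other genes were 0.08 and 0.08, then 0.10 and 0.08, 0.04 and 0.05, 0.07 and 0.01, and -0.01 and -0.04. With depth and GC content both matched, the difference was 0.03, and after trends with depth, GC content and length were removed it was 0.02. The part of GC content in the members' ratios was not otherwise tested.

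**Figure D3:**
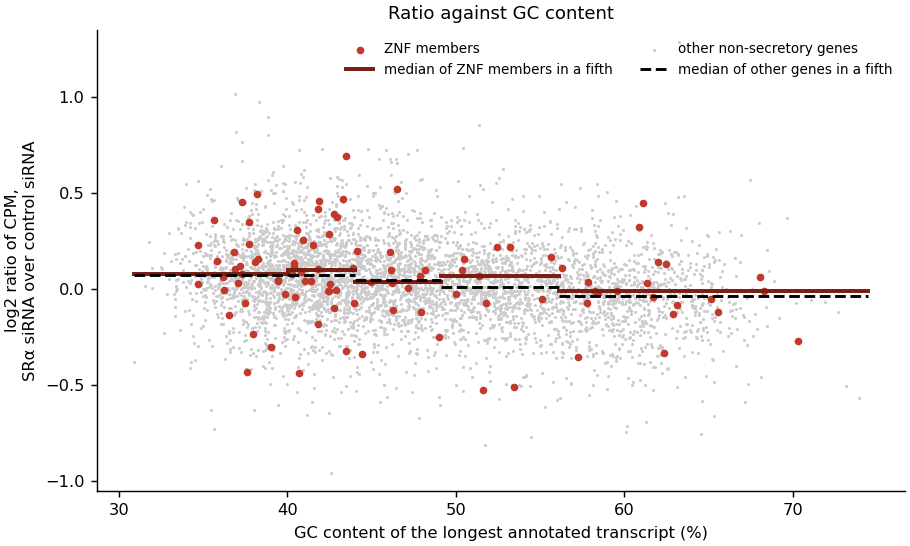
The log2 ratio, SRα siRNA over control siRNA, is plotted against the GC content of the longest annotated transcript for ZNF members (red) and other non-secretory genes (grey), with medians in 5 GC bins as solid dark red lines for members and dashed black lines for other genes. Both sets of medians are lower at high GC content, and they differ by 0.06 at most.

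ZNF773 was the member that stood apart. It encodes a protein with 9 C2H2 fingers whose start aligns to the KRAB domain of ZNF10. It had 1241 reads with SRα siRNA and 493 with control siRNA, or 323 and 199.1 CPM, a log2 ratio of 0.70 (0.54 to 0.85) and 1.62-fold higher. It was the most read member with 1734 reads, and held 7.26% of the members' reads with SRα siRNA and 4.79% with control siRNA. Among the 1681 protein-coding genes with at least 800 reads, only MAP1LC3B had a higher ratio. Per kilobase of exonic length its level was 40.0 CPM with SRα siRNA and 24.7 CPM with control siRNA.

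The ZNF genes beside it were far less read. ZNF419, the protein-coding gene just before it in RefSeq's order, had 7 reads with SRα siRNA and 6 with control siRNA (log2 ratio -0.38, -2.21 to 1.44). ZNF549, just after it, had 27 and 13 reads (0.41, -0.59 to 1.496), and ZNF772, which lies 2 places before it, had 27 and 10 (0.77, -0.29 to 2.01). None of these 3 reached 100 reads. ZNF550 and ZNF416, 2 and 3 places after ZNF773, had 30 and 44 reads with SRα siRNA and 21 and 17 with control siRNA. Their ratios were -0.12 (-0.97 to 0.76) and 0.72 (-0.10 to 1.64). The member ZNF749, 4 places before ZNF773, had 82 and 46 reads (0.20, -0.34 to 0.75). Exons of ZNF773 share 2.60% of their length with an unnamed gene on the same strand, which had 0 reads in both libraries, and 15.1% of its 31-base words occur in another gene. What part these play in its count was not tested.

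The next highest members had much wider intervals. ZNF462, a large protein with 33 finger matches that is known from a human craniofacial disorder, had 103 and 46 reads (26.8 and 18.6 CPM with SRα siRNA and control siRNA), a log2 ratio of 0.52 (0.01 to 1.06). The KRAB genes ZNF567, ZNF227 and ZNF850, on chromosome 19, had 77, 82 and 103 reads with SRα siRNA and 35, 38 and 48 with control siRNA. Their ratios were 0.50 (-0.09 to 1.12), 0.47 (-0.10 to 1.07) and 0.46 (-0.04 to 0.99). ZNF721, whose KRAB alignment score of 51 fell just under the limit of 55, had 113 and 53 reads (0.45, -0.03 to 0.96), and ABCA11P on the same strand overlaps 25.8% of its exonic length. Of these 5, only ZNF462 has an interval above equal levels, and its lower end nearly touches 0.

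Of the other 4 members of the top 10, ZNF335 is part of a complex that methylates histone H3 and is needed for brain growth. Its reads numbered 85 with SRα siRNA and 40 with control siRNA (0.45, -0.11 to 1.03). The KRAB gene ZNF268 had 73 and 35 reads (0.42, -0.18 to 1.05). ZNF830, a protein found with the spliceosome, had 137 and 67 reads (0.39, -0.04 to 0.84), and ZNF397 had 109 and 54 (0.38, -0.11 to 0.88). Each of these intervals holds equal levels. Exons of ZNF227 overlap those of ZNF235 on the opposite strand over 19.1% of their length, and those of ZNF397 overlap ZSCAN30 over 2.801%, so that without a known strand setting their reads cannot be fully told apart.

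At the other end stood ZNF609 and ZNF384. ZNF609, known as the host of an abundant circular RNA that gene-level counts do not separate, had 82 reads with SRα siRNA and 76 in the shallower control siRNA library, or 21.3 and 30.7 CPM, a log2 ratio of -0.52 (-0.99 to -0.06). ZNF384, a partner in fusion genes of acute lymphoblastic leukaemia, had 157 and 144 reads, or 40.8 and 58.2 CPM, a ratio of -0.51 (-0.85 to -0.17). A gene on the opposite strand overlaps 31.9% of its exonic length, and the part of that gene in its count was not tested. ZNF609 and ZNF384 are the only members with intervals wholly below equal levels, and they do not reach 1.5-fold. ZNF226 and ZNF430, KRAB genes of chromosome 19, had 55 and 54 reads with SRα siRNA and 48 and 47 with control siRNA, and ratios of -0.44 (-1.02 to 0.15) and -0.43 (-1.03 to 0.16).

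The remaining 6 of the lowest 10 lay between -0.35 and -0.27. ZNF629 had 107 and 88 reads (-0.35, -0.77 to 0.07), ZNF551 had 75 and 61 (-0.34, -0.84 to 0.17) and ZNF512B had 74 and 60 (-0.33, -0.84 to 0.18). ZNF217, an oncogene amplified in breast cancer, had 92 and 74 reads (-0.32, -0.78 to 0.14). ZNF655 had 73 and 58 (-0.30, -0.82 to 0.22) and ZNF787 had 72 and 56 (-0.27, -0.80 to 0.26). All 6 intervals hold equal levels.

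**Figure D4:**
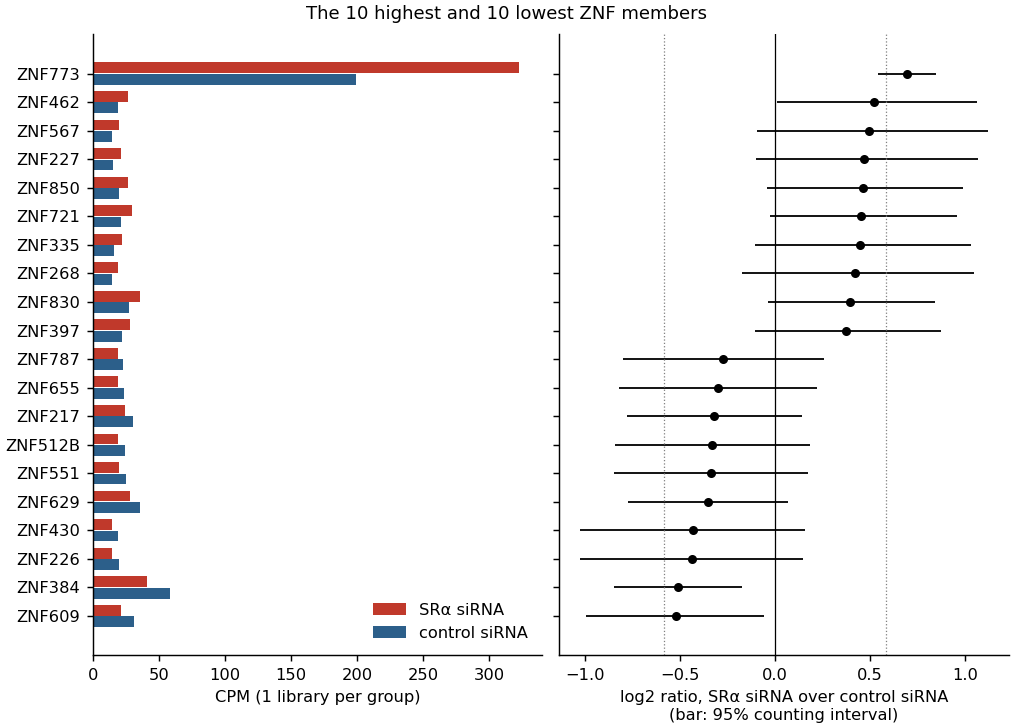
The left panel gives the level in CPM with SRα siRNA (red) and control siRNA (blue), 1 library each, of the 10 members with the highest and the 10 with the lowest log2 ratio. The right panel gives the ratio, SRα siRNA over control siRNA, with its 95% counting interval, and dotted lines at 1.5-fold. Of these 20 members, 4 have intervals that leave out 0, and ZNF773 alone lies past 1.5-fold.

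Members that handle RNA, ribosomes or protein modification were close to equal or slightly apart. ZNF598, the ubiquitin ligase that marks collided ribosomes, had 249 reads with SRα siRNA and 174 with control siRNA, or 64.7 and 70.3 CPM, a ratio of -0.12 (-0.40 to 0.17), with 10.7% of its exonic length overlapped on the opposite strand. ZNF622, whose yeast counterpart Rei1 matures the large ribosomal subunit, had 302 and 167 reads, or 78.5 and 67.4 CPM (0.22, -0.06 to 0.50). ZNF451, a SUMO ligase, had 218 and 110 reads, or 56.7 and 44.4 CPM, a ratio of 0.35 (0.01 to 0.70), whose interval just leaves out equal levels. An antisense gene overlaps 6.29% of its exonic length. The double-stranded RNA-binding ZNF346 had 105 and 58 reads (0.22, -0.26 to 0.71).

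ZNF326, which couples RNA polymerase II to splicing, had 561 and 345 reads (0.07, -0.13 to 0.26). ZNF638, which silences unintegrated retroviral DNA, had 451 and 282 reads (0.04, -0.18 to 0.26), and ZNF207 (BuGZ), a partner of the spindle checkpoint protein BUB3, had 380 and 227 reads (0.11, -0.13 to 0.35). All 3 are well read, and their intervals allow differences of at most 0.35 on the log2 scale in either direction.

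Among regulators without a KRAB domain, ZNF24 was the second most read member. It had 893 reads with SRα siRNA and 529 with control siRNA, or 232 and 214 CPM, a ratio of 0.12 (-0.04 to 0.28). ZNF143, an activator of the promoters of small nuclear RNAs, had 159 and 103 reads, or 41.3 and 41.6 CPM (-0.01, -0.38 to 0.36), with 7.58% of its exonic length overlapped on the opposite strand. ZNF148 and ZNF281, related proteins that bind GC-rich DNA, had 146 and 326 reads with SRα siRNA and 73 and 195 with control siRNA. Their ratios were 0.36 (-0.05 to 0.79) and 0.11 (-0.15 to 0.37). ZNF703, a gene amplified in luminal breast cancer, had 595 and 397 reads, or 155 and 160 CPM (-0.05, -0.24 to 0.13). Its protein is 1 of 3 among the members with no match to the C2H2 pattern. ZNF644, a partner of the histone methyltransferases G9a and GLP, had 532 and 324 reads (0.08, -0.12 to 0.28), and ZNF318 had 183 and 110 (0.10, -0.25 to 0.45). Equal levels lie within each of these 7 intervals.

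KRAB members were compared with the rest as a description. By alignment to the first 75 residues of ZNF10, 41 members and 337 of all 501 ZNF-named genes had a KRAB domain, so 12.2% of KRAB genes and 34.8% of the 164 others reached 100 reads. That minimum is the rule that chose the members, so these shares are no finding. The 41 KRAB members had a median log2 ratio of 0.07 (SD 0.23), with 26 above 0 and 15 below, and the 57 others 0.04 (SD 0.23), with 34 and 23. The difference of the medians was 0.03, and -0.01 when taken within GC bins. KRAB members had a median of 12 finger matches and 7 linkers, the others 6 and 0. Among KRAB members, ZNF274, which brings SETDB1 to the ends of ZNF genes, had 93 reads with SRα siRNA and 57 with control siRNA (0.07, -0.42 to 0.57). ZNF746 (PARIS), a substrate of parkin, had 111 and 64 reads (0.16, -0.30 to 0.63).

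The machinery that KRAB domains recruit was measured more deeply and was close to equal. Of 28 listed genes, 25 had at least 100 reads, with a median ratio of 0.04 beside 0.02 over all protein-coding genes, 17 above 0 and 8 below, and none 1.5-fold apart. The share above 0 was 68%, beside 54.7% of all protein-coding genes. The 25 genes ran from 152 to 6462 summed reads, so no single depth band matches them. From the lowest of the 4 depth bands to the highest, 48.9%, 54.9%, 61.4% and 69.7% of other non-secretory genes were above 0. TRIM28 had 3923 reads with SRα siRNA and 2539 with control siRNA, or 1020 and 1025 CPM (-0.01, -0.08 to 0.06), and SETDB1 had 376 and 254 reads (-0.07, -0.30 to 0.17). Among the highest were the remodeller CHD3 at 0.34 (0.0014 to 0.69) and MORC3 at 0.31 (-0.07 to 0.70). The lowest were MPHOSPH8, a subunit of the HUSH silencing complex, at -0.21 (-0.70 to 0.27), ATF7IP at -0.08 (-0.32 to 0.15) and the DNA methyltransferase DNMT3B at -0.07 (-0.36 to 0.22). Intervals lay wholly above equal levels for 2 of the 25, CHD3 and the DNA methyltransferase DNMT1, which had 1595 reads with SRα siRNA and 888 with control siRNA (0.21, 0.09 to 0.33). The share with such intervals over all protein-coding genes was 7.76%. Over other non-secretory genes it was 3.65%, 4.70%, 7.76% and 21.6% from the lowest depth band to the highest.

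Other zinc finger and regulator families gave medians on both sides of 0. The median ratio was 0.17 for 3 ZFP genes, 0.03 for 6 ZSCAN and ZKSCAN genes and 0.03 for 12 ZBTB genes, families whose proteins also carry C2H2 fingers. It was -0.04 for 9 KLF and SP factors, -0.01 for 18 HOX, FOX and SOX factors and -0.03 for 44 RNF genes, which encode RING finger proteins. The 10 ZC3H genes, whose CCCH fingers bind RNA, had a median of 0.21, with 9 above 0, from ZC3H7B at -0.12 (-0.50 to 0.26) to ZC3H4 at 0.39 (0.11 to 0.67). The share above 0 was 54.7% over all protein-coding genes and 58.5% over other non-secretory genes with at least 100 reads. It was 66.9% over other non-secretory genes of the GC bin that holds the ZC3H median of 41.3%. ZKSCAN8 had the highest ratio in these lists, 0.73 (0.22 to 1.26) from 116 and 45 reads, and SP4 the lowest, -0.82 (-1.40 to -0.25) from 50 and 57.

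By location in GENCODE 29, 31 members lie on chromosome 19, where most human KRAB genes are found, and 20 of these have a KRAB domain. Their median ratio was 0.04, against 0.07 for the 67 members elsewhere. On chromosome 7, 13 members had a median of -0.01, from -0.30 to 0.16. Neighbouring members had like ratios in some runs and not in others. ZNF567 and ZNF850, adjacent among protein-coding genes, had 0.50 and 0.46, while the adjacent ZNF227 and ZNF226 had 0.47 and -0.44. The run of ZNF398, ZNF282 and ZNF212 had 0.07, -0.08 and -0.05, and ZNF777 and ZNF746 had 0.13 and 0.16.

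Per kilobase of exonic length, members had a median level of 5.13 CPM with SRα siRNA and 5.01 CPM with control siRNA, below the 12.1 and 11.9 CPM of other non-secretory genes with at least 100 reads. The 5 highest levels per kilobase with SRα siRNA were those of ZNF622 (46.2 and 39.7 CPM), ZNF703 (46.2 and 47.9), ZNF773 (40.0 and 24.7), ZNF330 (38.9 and 33.1) and ZNF768 (32.6 and 35.6), with SRα siRNA given first. The lowest was ZNF268, with 1.346 and 1.003 CPM per kilobase. With control siRNA, ZNF773 stood below the other 4 of these and also below ZNF503 (29.8 CPM per kilobase with SRα siRNA and 27.0 with control siRNA), ZNF146 (26.9 and 26.1) and ZNF24 (28.1 and 25.9).

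Just inside the minimum, ZNF45 had 62 reads with SRα siRNA and 39 with control siRNA (0.03) and ZNF184 had 63 and 38 (0.09), 101 reads in all for each. ZNF697 (-0.03) and ZNF430 (-0.43) had the same sum. Just outside the minimum, ZNF561 had 66 and 33 reads (0.36) and ZNF445, a regulator of imprinting, had 57 and 42 (-0.19), both with 99 in all. ZNF592 had 66 and 32 (0.40), in a tie at 98 with ZNF740 (-0.16) among others. The 403 genes below the minimum gave pooled counts of 7344 with SRα siRNA and 4465 with control siRNA, a log2 ratio of 0.08 (0.03 to 0.14). Among the 27 ZNF genes listed for a well-known role, 10 fell below the minimum. ZNF76, a relative of ZNF143, had 17 and 20 reads (-0.85, -1.89 to 0.14), ZNF91, which represses SVA retrotransposons, had 3 and 6, and ZNF93, which represses LINE-1 elements, had 0 in both libraries. ZNF410 had a ratio of -0.44, and ZNF593 had 0 and 2 reads. In the other direction, ZNF423, ZNF827, ZNF10 and ZNF202 had ratios of 1.10, 0.73, 0.44 and 0.40, with intervals that hold equal levels.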

How the data were processed

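The deposited counts are whole numbers of reads for each Ensembl ID, 1 file per library. STAR 2.5.2b, cutadapt and the hg19 build are named per the submitters' processing notes, but the counter, strand setting and annotation release are not given there. Per the labels, libraries were made with a stranded mRNA kit. The 5 summary lines were left out (no gene: 7.49% and 7.23% of uniquely aligned reads with SRα siRNA and control siRNA; several genes: 4.58% and 4.67%). Libraries were scaled by TMM (edgeR 4.0.16, R 4.3.3). Ratios use a prior count of 0.5, with exact (Clopper-Pearson) 95% counting intervals. Without molecular identifiers, reads are not independent molecules. IDs were paired with symbols through the reference name table, and gene type, length, GC content and coding sequence from GENCODE 29 by ID. Proteins were translated from the longest coding sequence, the planned protein table not being used here. Non-secretory proteins had no window of 19 residues with mean hydropathy of 1.6 and none of 12 in the first 25 residues with 2.0. KRAB required a BLOSUM62 score of 55. Fingers matched C, 2 to 4 residues, C, 12 residues, H, 3 to 5 residues, H. Members and lists were chosen with earlier results of these data known. Named members are the 10 highest and 10 lowest, the 6 most read, those of a role list and those beside the minimum; other genes are the extremes of their lists, shortened for the comparison families, and some are named for context after their values were seen. A gene that this rule names is not reported here. The procedure was tested on simulated data.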

Additional observations from a re-analysis of the deposited data

How the results depend on the processing

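The median of the members stayed above 0 in each setting tried, at 0.0090 with library totals as scaling and 0.10 with at least 200 summed reads, against 0.05 as reported. The difference from genes of like depth was above 0 in all 15 alternatives, 1 of which used all other protein-coding genes (0.06) and the rest other non-secretory genes, from 0.02 after removal of trends to 0.10 with no read minimum beyond 1 read in both libraries. Library scaling shifts members and other genes alike, so it hardly moves this difference. All alternatives use the same 2 libraries, so their number is not independent support. The count of members at least 1.5-fold higher was 10 of 201 with at least 50 reads and 58 of 397 with no minimum, where counting error is larger, and 0 at 2-fold or without ZNF773. The count at least 1.5-fold lower was 4 after the SRα siRNA library was thinned to the control siRNA total, 1 with at least 50 reads and 26 with no minimum. Shares of other genes at these minimums and after thinning are not given here, so these counts are no result about the members. Leaving out ZNF773 and leaving out the 43 members whose exons overlap another gene were chosen after seeing the data. Of 190 alternative ratios of 38 named members, 190 lay within the reported interval, with ZNF773 between 0.66 and 0.70. Changes of scaling or prior count move a ratio far less than its interval reaches, and thinning reuses the same reads. This count is therefore no support for the ratios. The difference between KRAB members and others was -0.0050 after thinning and -0.0096 within GC bins, against 0.03 as reported. No paired analysis was possible because the groups hold 1 library each and share fewer than 2 replicate numbers. Depth limits single members unequally: their intervals reached 0.15 to 0.62 on the log2 scale to either side.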
